A study of Mus musculus with 8 samples.

Results

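The genes described here encode the protein part of the mitochondrial ribosome. They were taken as every gene of the count matrix whose symbol is Mrpl or Mrps followed by a digit, which gave 78 of 20170 genes. Mrpl genes, named for the large subunit, made up 49 of them, and Mrps genes, named for the small subunit, made up 29. All 78 passed the filter on low counts in both CD4 and CD8 cells. They lay on 17 chromosomes, 11 of them on chromosome 11 and none on the mitochondrial genome.

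Pan T cells purified from the spleens of WT or SDHA-KO mice were profiled by 3′ single-cell RNA sequencing, before (unstimulated) and after stimulation, with 2 libraries for each of these 4 groups and 8 in all. SDHA-KO mice carried Sdha fl/fl and a CD4-Cre transgene, whose Cd4 promoter acts in developing αβ T cells, so both CD4 and CD8 cells are targeted and γδ T cells may escape. WT is all the labels say of the control mice. The study used mice of 8 to 12 weeks. Stimulated cells received soluble antibodies to CD3 (5 μg/mL) and CD28 (2.5 μg/mL) for 48 hours, unstimulated cells were cultured alone, and dead cells were removed in every group. The labels do not say that replicate libraries came from separate mice, so the p-values measure the spread between libraries, which may be technical.

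Mitochondrial ribosomes translate the few messenger RNAs of the mitochondrial genome, all of which encode subunits of the respiratory chain or of ATP synthase. Every protein of this ribosome is encoded in the nucleus, made in the cytosol, and imported, whereas its RNAs come from the mitochondrial genome. Some proteins descend from bacterial ribosomal proteins, and others are found only in mitochondria. T cells increase their mitochondrial mass when they are activated. SDHA, the catalytic subunit of complex II, is encoded in the nucleus and is not made on this ribosome.

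The promoters of 4 genes on which the results turn are shown first. Most of the 78 genes rose with stimulation, and these 4 stood out in different ways. Mrpl52 differed between genotypes before stimulation, Mrpl58 fell while most members rose, Mrpl39 differed most between genotypes after stimulation in CD4 cells, and the SDHA-KO effect on Mrpl12 after stimulation differed most between CD4 and CD8 cells. The sequences are RefSeq promoters of build GRCm38.p6, the 250 bases before the annotated start, 5′ to 3′ on the strand of the gene. Capitals mark matches to the ETS motif CCGGAAG or the NRF1 motif GCGCATGCG, on either strand. They lie at chr14:54426659-54426908 (plus strand), chr11:115403502-115403751 (plus), chr16:84735245-84735494 (minus), and chr11:120484387-120484636 (plus).
Mrpl52: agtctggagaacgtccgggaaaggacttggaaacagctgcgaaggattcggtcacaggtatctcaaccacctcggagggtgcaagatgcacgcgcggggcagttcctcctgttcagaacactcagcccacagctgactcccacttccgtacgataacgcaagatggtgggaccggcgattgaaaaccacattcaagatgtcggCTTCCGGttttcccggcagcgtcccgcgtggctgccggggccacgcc
Mrpl58: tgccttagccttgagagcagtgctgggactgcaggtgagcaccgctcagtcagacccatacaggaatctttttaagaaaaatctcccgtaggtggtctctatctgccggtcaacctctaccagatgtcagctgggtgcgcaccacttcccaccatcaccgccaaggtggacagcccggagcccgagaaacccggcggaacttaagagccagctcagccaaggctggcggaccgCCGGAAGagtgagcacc
Mrpl39: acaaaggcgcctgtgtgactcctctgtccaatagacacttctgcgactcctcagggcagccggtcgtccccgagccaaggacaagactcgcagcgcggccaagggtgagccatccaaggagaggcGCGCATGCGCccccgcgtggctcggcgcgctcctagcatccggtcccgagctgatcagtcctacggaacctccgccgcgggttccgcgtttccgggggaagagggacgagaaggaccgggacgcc
Mrpl12: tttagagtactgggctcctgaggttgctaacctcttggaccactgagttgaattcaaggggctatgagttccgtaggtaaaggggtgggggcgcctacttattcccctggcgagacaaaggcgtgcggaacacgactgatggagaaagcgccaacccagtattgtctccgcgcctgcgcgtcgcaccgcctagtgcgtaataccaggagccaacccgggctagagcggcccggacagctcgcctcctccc

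In the Mrpl52 promoter, the ETS match was on the opposite strand and began 47 bases before the start, and in that of Mrpl58 it was on the gene's strand, 17 bases before the start. Mrpl39 held the NRF1 letters on both strands, in overlapping matches 125 and 124 bases before the start. The Mrpl12 window held none of 4 motifs that were searched. Over windows of 300 bases (250 before to 50 after the start), RefSeq gave 75 windows for 69 of the 78 genes. The ETS letters were in 26 of them (34.7%) and in 2910 of 32851 windows of all genes (8.86%). NRF1 letters were in 7 (9.33%, against 1.75% of all windows), the YY1 letters AAGATGGCG in 8 (10.7%, against 1.4%), and the E-box CACGTG in 7 (9.33%, against 7.15%). Matches of different motifs overlapped in 0 members. Member windows were also richer in G and C, with a median of 58.67% against 52.67%, and in CG dinucleotides, with a median of 21 against 7, and a motif rich in these letters is met more often in such windows. These matches are letters in a window and do not show that a factor binds there.

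Unique molecular identifiers (UMIs), each standing for 1 captured transcript, were summed over the cells of a library and class, for 12846 cells in all. These sums held 3640136 to 34087903 UMIs. A member had 10 (Mrps2 in CD8 cells) to 11436 UMIs (Mrpl33 in CD4 cells) in a sum. Levels below are CPM, UMIs per 1000000 UMIs of the library after TMM scaling, sums over several genes and values of markers or subsets are raw CPM, without that scaling, and differences are log2 fold changes. A gene was called where edgeR's quasi-likelihood test gave a Benjamini-Hochberg adjusted p below 0.05 over all genes tested, 14264 in CD4 and 13095 in CD8 cells. Sdha checked the labels. In CD4 cells it was at 101 and 100.1 CPM in unstimulated WT, 49.8 and 49.4 in unstimulated SDHA-KO, 74.0 and 73.1 in stimulated WT, and 26.5 and 26.4 in stimulated SDHA-KO libraries. In CD8 cells the stimulated libraries had 76.2 and 74.9 CPM in WT and 53.3 and 50.4 in SDHA-KO, a fall of a log2 fold change of -0.54. Sdha was lower in every SDHA-KO library than in the WT libraries of its state and class, and 3′ reads cannot tell the intact transcript from the recombined one.

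Several features of the libraries moved with genotype or state. Markers of γδ T cells, 6 of 6 measured, summed to 18.1 to 21.2 CPM in stimulated WT and 254 to 261 CPM in stimulated SDHA-KO CD8 cells, and to 26.3 to 28.8 and 174 to 234 CPM before stimulation. Igkc, an immunoglobulin light chain gene that marks B cells, was at 227 raw CPM in stimulated SDHA-KO CD8 replicate 1 and 2.26 in replicate 2, against 0.191 and 0 in stimulated WT CD8 cells, and at 26.6 and 8.71 against 0 and 0.241 in stimulated CD4 cells. The defining T cell markers, 4 of 4, were present in every sum at 1072.3 CPM or more. Of stimulated WT CD4 cells, 39.1% and 41.0% had under 10% mitochondrial UMIs, against 86.9% and 90.0% of SDHA-KO cells, and in CD8 cells these shares were 24.3% and 29.3% against 65.0% and 64.1%. Of unstimulated cells, 99.8% or more were under this limit. Stimulated CD4 cells under it had a median of 59714 and 59710 UMIs per cell in WT and 26638 and 26960 in SDHA-KO libraries. Cd4 was at 155 raw CPM in both unstimulated WT and 550 and 631 in SDHA-KO CD4 libraries, and Cd8a and Cd8b1 summed to 464 to 499 in stimulated WT and 211 to 273 in SDHA-KO CD8 libraries. The libraries shared 23 of 12823 barcode sequences. In sums over cells, fewer cells of a type and less RNA per cell cannot be told apart.

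Transcripts of the mitochondrial ribosome took a larger share of all UMIs after stimulation, and a larger one still in SDHA-KO cells. Large subunit genes summed to 2380.0 and 2302.7 raw CPM in unstimulated WT CD4 cells and to 2355.5 and 2189.1 in unstimulated SDHA-KO cells, which overlapped. After stimulation they reached 4114.6 and 4131.1 in WT and 5417.4 and 5955.3 in SDHA-KO libraries. The mean share after stimulation was thus 1.76-fold that before it in WT and 2.50-fold in SDHA-KO cells, and the stimulated SDHA-KO share was 1.38-fold that of WT with no overlap. CD8 cells went from 2306.7 and 2355.5 to 4039.0 and 4098.1 in WT and from 2492.2 and 2340.3 to 6206.7 and 6470.1 in SDHA-KO libraries, so the stimulated SDHA-KO share was 1.56-fold that of WT. With 2 libraries against 2, an exact two-sided permutation test cannot go below p = 0.333, so these sums are given without a test.

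Small subunit genes followed the same course. They summed to 2353.6 and 2354.9 raw CPM in stimulated WT CD4 cells and to 2837.5 and 3172.1 in SDHA-KO cells, 1.28-fold apart. In CD8 cells the stimulated values were 2289.2 and 2301.5 in WT and 3241.9 and 3383.8 in SDHA-KO libraries, 1.44-fold apart. The groups did not overlap in either class. Before stimulation, SDHA-KO shares were 1.03-fold and 1.06-fold those of WT. The ratio of large to small subunit UMIs after stimulation was 1.75 in both WT and 1.91 and 1.88 in SDHA-KO CD4 libraries, and 1.76 and 1.78 against 1.91 in both CD8 libraries, 1.08-fold higher in SDHA-KO cells of both classes. Before stimulation it was lower in SDHA-KO cells, at 1.70 and 1.64 against 1.81 and 1.75 in WT CD4 and 1.78 and 1.77 against 1.81 and 1.83 in CD8 libraries. Mrpl52, the only member called between unstimulated genotypes, was lower in SDHA-KO cells and is part of the large subunit sum. The ratio without Mrpl52 was not computed.

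**Figure D1:**
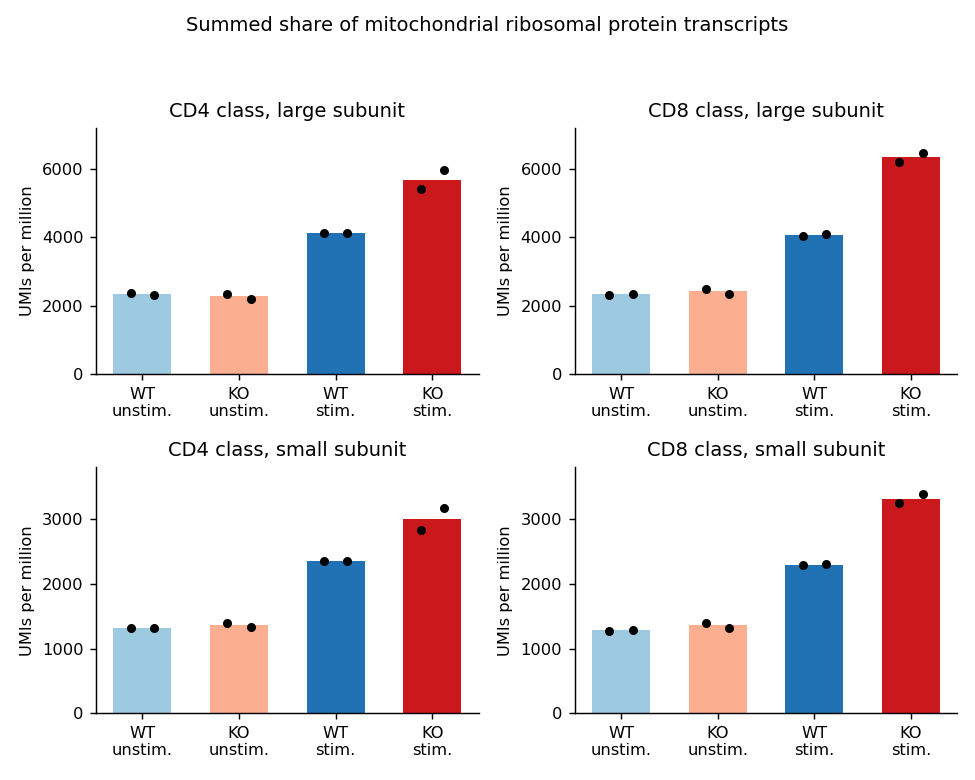
Summed UMIs of the 49 Mrpl genes (upper panels) and 29 Mrps genes (lower panels) as raw CPM (UMIs per 1000000 UMIs) in CD4 and CD8 cells, with points for the 2 libraries of a group and bars for their mean. Both stimulated groups lie above the unstimulated ones in every panel, and stimulated SDHA-KO libraries lie above stimulated WT libraries, for example at 6206.7 and 6470.1 against 4039.0 and 4098.1 for the large subunit in CD8 cells.

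The response of WT cells to stimulation was a broad rise with a few members falling. Of the 78 genes, 68 rose and 2 fell in CD4 cells, with a median of 0.66 on the log2 scale against 0.08 for all genes, and 57 rose and 7 fell in CD8 cells, with a median of 0.45 against 0.09. Of all genes, 36.2% rose and 30.1% fell in CD4 cells, and 35.5% rose and 30.3% fell in CD8 cells. In CD4 cells 41 of 49 large and 27 of 29 small subunit genes rose, and in CD8 cells 36 and 21 did. The 57 members that rose in CD8 cells were all among the 68 of CD4 cells. Scaled to library totals alone, the median of all genes shifted to 0.30 in CD4 and 0.57 in CD8 cells, and the member medians to 0.88 and 0.93, with 75 and 73 members rising where 43.9% and 52.8% of all genes did.

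Mrpl45, which helps to hold the ribosome at the inner membrane beside the exit of the nascent chain, had the largest rise in CD4 cells. It was at 14.4 CPM in both unstimulated and at 61.8 and 63.4 in the stimulated WT libraries. That was a log2 fold change of 2.12 ± 0.11 (SE; adjusted p = 1.27e-08), and in CD8 cells it was 1.52 ± 0.13 (adjusted p = 1.29e-06). Mrps22, a small subunit protein specific to mitochondria, rose from 13.0 and 12.1 to 37.1 and 38.7 CPM in CD4 cells and from 12.6 and 13.2 to 40.1 and 36.9 in CD8 cells (log2 fold changes 1.59 and 1.58). Mrps10, a homolog of bacterial S10, rose from 20.5 and 21.6 to 61.4 and 59.1 CPM and from 22.9 and 19.0 to 55.5 and 56.6 (1.52 and 1.43). For these 3 genes, both stimulated libraries of each class were far above both unstimulated ones.

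Mrpl58 and Mrpl24 fell in WT cells of both classes over all cells, and in CD8 cells alone among those under 10% mitochondrial UMIs. Mrpl58, also called Ict1, is a peptidyl-tRNA hydrolase that frees stalled ribosomes and is built into the large subunit. Its level went from 73.8 and 75.2 to 52.5 and 56.6 CPM in CD4 cells and from 100.2 and 100.8 to 50.0 and 52.3 in CD8 cells. The log2 fold changes were -0.45 ± 0.08 (adjusted p = 0.000335) and -0.97 ± 0.09 (adjusted p = 1.57e-06). Mrpl24, a homolog of bacterial L24 near the end of the exit tunnel, went from 90.3 and 91.5 to 70.2 and 70.8 CPM in CD4 cells and from 111 and 100.2 to 59.4 and 59.2 in CD8 cells (-0.37 and -0.83). No unstimulated library overlapped a stimulated one for either gene. In CD8 cells Mrpl52, a large subunit protein specific to mitochondria, fell as well, from 221 and 233 to 147 and 160.0 CPM (-0.57, adjusted p = 0.000195), while in CD4 cells it was at 227 and 212 before and 212 and 223 after (-0.01, adjusted p = 0.926). Scaled to library totals alone, Mrpl58 still fell in both classes (-0.23 and -0.49) and Mrpl24 in CD8 cells (-0.35), whereas Mrpl24 in CD4 cells (-0.15) and Mrpl52 in CD8 cells (-0.08) were not called and Mrpl52 in CD4 cells was at 0.21. In cells under 10%, Mrpl58 and Mrpl24 were at -0.37 and -0.34 in CD8 cells, both called, and were not called in CD4 cells, where Mrpl58 was at 71.3 and 72.4 CPM before and 68.7 and 73.8 after (-0.011) and Mrpl24 was at 0.011. Mrpl52 in these cells was at 212 and 223 CPM before and 211 and 212 after in CD8 cells (-0.039, adjusted p = 0.702), and rose in CD4 cells (0.40, adjusted p = 0.000906).

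In SDHA-KO cells the rise was larger than in WT for 72 of 78 members in CD4 and 77 in CD8 cells, and none fell. In CD4 cells 78 of 78 members rose (median log2 fold change 1.10, all genes 0.03), where 36.6% of all genes did. In CD8 cells 74 rose and 0 fell (median 1.10, all genes 0.10), where 37.2% of all genes rose. The 4 that were not called in CD8 cells were Mrpl23, Mrpl24, Mrpl58, and Mrps21. Mrpl12, the stalk protein that recruits translation factors and also binds the mitochondrial RNA polymerase, rose most there, from 84.2 and 70.2 to 343 and 366 CPM (2.20). Mrpl20, a homolog of bacterial L20, rose from 83.3 and 80.5 to 346 and 377 (2.14). Mrps6, a homolog of bacterial S6, rose from 24.3 and 26.3 to 91.0 and 102 CPM in CD8 cells (1.93) and from 26.3 and 30.4 to 98.9 and 105 in CD4 cells (1.84). In CD4 cells Mrps22 and Mrpl45 stood beside it, at 1.93 and 1.83. Each of these genes had both stimulated libraries above both unstimulated ones.

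**Figure D2:**
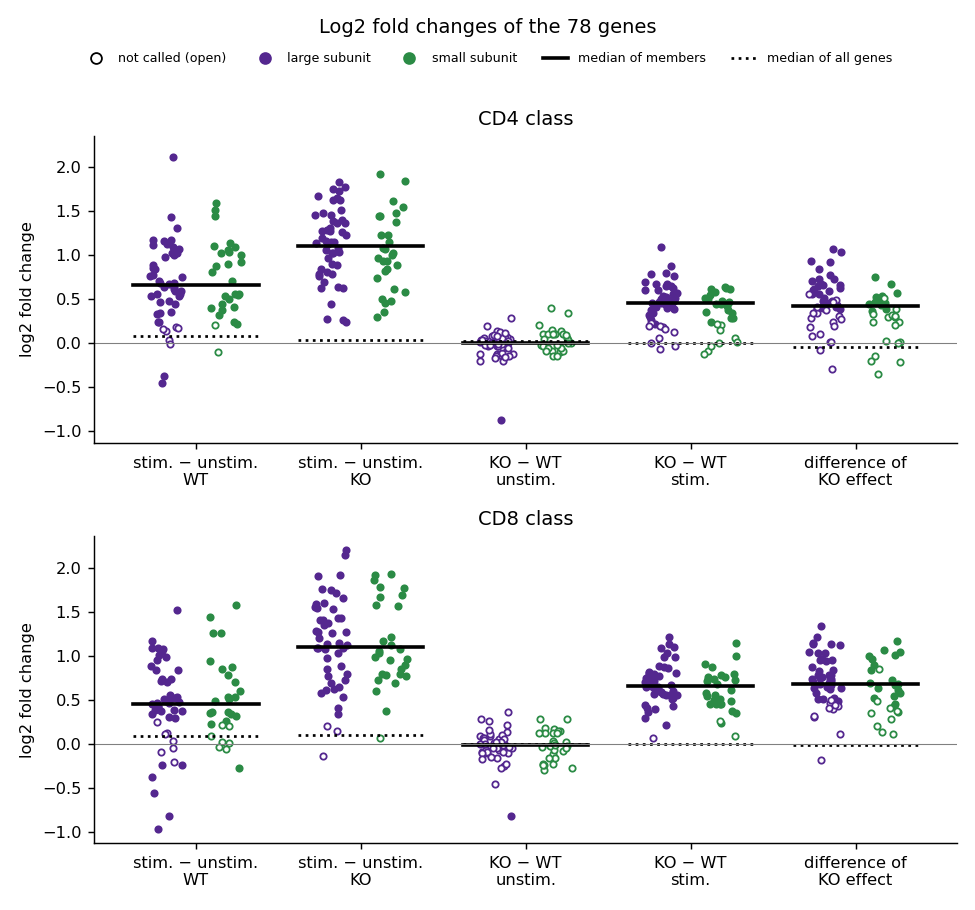
Log2 fold changes of the 78 genes in 5 comparisons, in CD4 (upper) and CD8 cells (lower), with filled points for called genes, open points for genes not called, solid lines for the median of the 78, and dotted lines for the median of all genes tested. For unstimulated SDHA-KO against WT, Mrpl52 is the only called point in each class. The medians of SDHA-KO against WT after stimulation are 0.45 in CD4 and 0.65 in CD8 cells.

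Before stimulation, 1 member was lower in SDHA-KO cells and none was called higher. The test called 1 of 78 members in each class, where 1.10% of all genes in CD4 and 0.947% in CD8 cells were called, and the member medians were 0.01 and -0.02. It was Mrpl52 in both. In CD4 cells it was at 227 and 212 CPM in WT and 127 and 113 in SDHA-KO libraries. In CD8 cells it was at 221 and 233 in WT and 142 and 115 in SDHA-KO libraries. Both SDHA-KO libraries were far below both WT libraries in each class. The log2 fold changes were -0.87 ± 0.09 (edgeR adjusted p = 0.00117) and -0.82 ± 0.10 (adjusted p = 0.00357), and the CD8 call was lost without WT unstimulated replicate 1 (adjusted p = 0.0804) or 2 (0.149).

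Mrpl52 was lower in every unstimulated subset the authors annotated. In raw CPM of each subset, it was in CD4 naive cells at 185 and 173 in WT and 102 and 89.4 in SDHA-KO libraries, in CD4 effector memory cells (Tem) at 285 and 315 against 216 and 236, and in regulatory T cells (Treg) at 336 and 283 against 184 and 167. In CD8 naive cells it was at 175 and 181 against 99.6 and 89.6, and in CD8 central memory cells (Tcm) at 241 and 282 against 221 and 196. The groups did not overlap in any of the 5, and the smallest gap was in CD8 Tcm cells. Mrpl52 lies at chr14:54426909-54429756 on the plus strand (mm10, GENCODE). Oxa1l, which inserts proteins into the inner membrane, lies before it at chr14:54360834-54369673, and Lrp10 lies after it. Neither Oxa1l nor Lrp10 was called, and genes that may lie closer to Mrpl52 are not described here. Mrpl58 came next in CD8 cells, at 100.2 and 100.8 CPM in WT and 68.7 and 78.2 in SDHA-KO libraries (-0.45, adjusted p = 0.0593), and in CD4 cells it was at 73.8 and 75.2 against 64.1 and 65.5 (-0.20, adjusted p = 0.259).

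**Figure D3:**
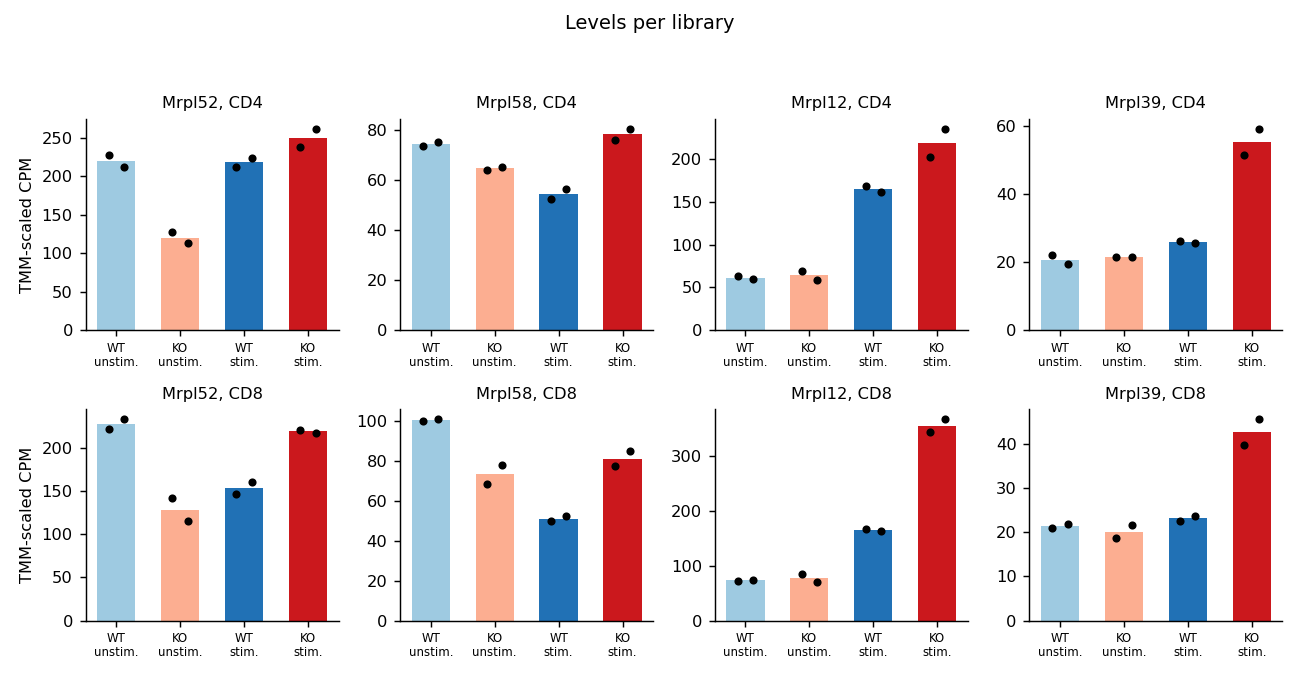
TMM-scaled CPM of Mrpl52, Mrpl58, Mrpl12, and Mrpl39 in CD4 (upper) and CD8 cells (lower), with points for the 2 libraries of a group and bars for their mean. Unstimulated SDHA-KO libraries have Mrpl52 at 113 to 142 CPM against 212 to 233 in WT, and stimulated SDHA-KO libraries have Mrpl12 at 343 and 366 CPM in CD8 cells against 202 and 235 in CD4 cells.

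After stimulation most members were higher in SDHA-KO cells. In CD4 cells 59 were higher and 0 lower (median log2 fold change 0.45), where 22.7% of all genes were higher, and in CD8 cells 75 were higher and 0 lower (median 0.65), where 26.8% were. The median of all genes was -0.000941 in CD4 and -0.01 in CD8 cells. Large subunit genes made up 39 and 48 of these, with medians of 0.48 and 0.67, and small subunit genes 20 and 27, with medians of 0.38 and 0.58. The libraries of the 2 genotypes did not overlap for 70 members in CD4 and 77 in CD8 cells. Non-overlap was not counted over all genes, so these counts have no baseline. In cells that held a Cd4 or a Cd8 UMI, none of the other coreceptor, and no Trdc UMI, the counts were 59 and 72 higher, although such cells were 33.1% and 37.1% of stimulated SDHA-KO and 87.2% and 85.0% of WT CD8 cells. The share of all genes called higher in such cells is not given here, so these counts have no baseline. The part of the γδ markers and of Igkc in the CD8 result was otherwise not tested.

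Mrpl39, a large subunit protein related to threonyl-tRNA synthetase, differed most in CD4 cells. It was at 26.3 and 25.5 CPM in WT and 51.5 and 59.1 in SDHA-KO libraries, a log2 fold change of 1.10 ± 0.09 (adjusted p = 7.41e-06), and in CD8 cells at 22.5 and 23.7 against 39.6 and 45.5 (0.88 ± 0.10). Mrpl57, specific to mitochondria, was at 128 and 131 against 224 and 251 CPM in CD4 cells (0.87) and at 123 and 135 against 195 and 205 in CD8 cells (0.63). Mrpl16, a homolog of bacterial L16 near the site where the incoming tRNA binds, was at 33.4 and 33.8 against 54.7 and 61.7 CPM in CD4 cells (0.79) and at 31.8 and 32.1 against 64.5 and 75.5 in CD8 cells (1.13). All 3 had both SDHA-KO libraries above both WT libraries in both classes.

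Mrpl53, a large subunit protein specific to mitochondria, differed most in CD8 cells, at 46.6 and 52.5 CPM in WT and 112 and 118 in SDHA-KO libraries (1.21 ± 0.08, adjusted p = 1.38e-06). In CD4 cells it was at 50.3 and 48.1 against 75.6 and 81.3 (0.67). Mrps7, a homolog of bacterial S7 in the head of the small subunit, was at 58.7 and 59.7 against 128 and 134 CPM in CD8 cells (1.14) and at 65.0 and 63.9 against 87.9 and 100.4 in CD4 cells (0.55). Both differed more in CD8 than in CD4 cells, by 0.53 and 0.59 on the log2 scale (adjusted p = 0.00532 and 0.00169). The 3 members not called in CD8 cells were Mrps9, Mrps27, and Mrpl14, at 0.08, 0.26, and 0.07. Among the 19 not called in CD4 cells, Mrpl45 and Mrps10 had nearly equal levels in the genotypes, at 61.8 and 63.4 against 62.4 and 62.8 CPM (-0.000467) and at 61.4 and 59.1 against 58.1 and 62.5 (0.00245), although both had risen strongly in either genotype.

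The SDHA-KO effect after stimulation differed from the effect before it for 41 members in CD4 and 59 in CD8 cells, all in the direction of a higher stimulated value, where 10.9% and 13.5% of all genes differed in that direction. Of these, 37 were shared by both classes, 90.2% of the CD4 and 62.7% of the CD8 genes. The member medians were 0.42 and 0.68, against -0.04 and -0.01 for all genes. Mrpl52 led in both classes, with a difference of 1.07 ± 0.12 (adjusted p = 0.000222) in CD4 and 1.34 ± 0.13 (adjusted p = 0.00015) in CD8 cells. Over all cells, its low level in unstimulated SDHA-KO libraries was no longer seen after stimulation, at 237 and 261 against 212 and 223 CPM in WT CD4 cells (0.19, adjusted p = 0.0766) and 221 and 217 against 147 and 160.0 in CD8 cells (0.51). In stimulated CD4 cells under 10% mitochondrial UMIs, SDHA-KO libraries were below WT, at 239.5 and 259 against 274 and 285 CPM, without a call. In such CD8 cells Mrpl52 was at 238 and 235 against 211 and 212 CPM. Mrpl39 followed in CD4 cells (1.03) with Mrpl3 (0.93), a homolog of bacterial L3 close to the peptidyl transferase center that was at 37.1 and 35.2 CPM in WT and 57.2 and 67.0 in SDHA-KO stimulated libraries. In CD8 cells Mrpl53 and Mrps7 followed, at 1.21 and 1.16. In cells under 10% mitochondrial UMIs 10 and 21 members were called, 6 and 20 toward a higher stimulated value. Of all genes, 14.2% and 11.1% were called there, so the CD4 count was near the share of all genes. Cells with only their own coreceptor gave 26 in CD4 cells, and the share of all genes is not given for those cells. The CD4 count fell to 17 and 20 without unstimulated WT replicate 2 or 1, to 21 without unstimulated SDHA-KO replicate 2, and to 26 without stimulated WT replicate 1.

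Among stimulated cells with under 10% mitochondrial UMIs the SDHA-KO effect was smaller, and in CD4 cells it divided by gene. Large subunit genes summed to 4780.1 and 4744.3 raw CPM in these WT CD4 cells and to 5534.6 and 6057.6 in SDHA-KO cells (1.22-fold), and in CD8 cells to 5220.7 and 5013.7 against 6685.4 and 6951.2 (1.33-fold). For the small subunit the ratios were 1.14 and 1.26. Cells at 10% or more had far lower shares in both genotypes, 2124.6 and 2150.0 against 2549.2 and 2504.5 in CD4 cells (1.18-fold) and 2258.8 and 2303.8 against 2550.9 and 2634.7 in CD8 cells (1.14-fold). The groups did not overlap in any of these, and each ratio within a range of mitochondrial percentage was below the ratio over all cells.

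**Figure D4:**
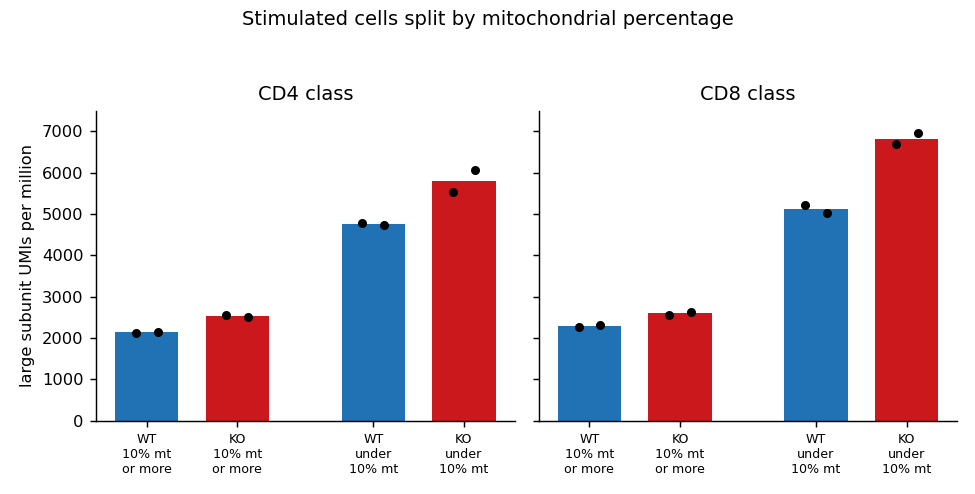
Summed UMIs of the 49 large subunit genes as raw CPM (UMIs per 1000000 UMIs) in stimulated cells at 10% or more and under 10% mitochondrial UMIs, with points for the 2 libraries of a group and bars for their mean. Cells under 10% have more than cells at or above it in both genotypes, and SDHA-KO exceeds WT within each range, for example at 6685.4 and 6951.2 against 5220.7 and 5013.7 in CD8 cells.

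Gene by gene, with TMM scaling, the log2 fold change was smaller in cells under 10% than in all cells for 78 of 78 members in both classes. This count was not made with library totals, which center the fold changes differently. In CD4 cells 18 were higher and 8 lower in SDHA-KO cells (median 0.09), where 16.0% of all genes were higher and 16.7% lower. In CD8 cells 47 were higher and 1 lower (median 0.30), where 18.4% were higher and 17.0% lower. The 18 and the 47 were all higher in all cells as well. Scaled to library totals alone, the median of all genes moved to 0.19 in CD4 and 0.07 in CD8 cells, the member medians to 0.28 and 0.38, and the counts to 47 higher and 1 lower in CD4 cells (30.8% and 9.94% of all genes) and 63 higher and 1 lower in CD8 cells (23.8% and 13.4%). The part of mitochondrial percentage in the difference over all cells was not tested beyond these values.

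Mrpl39 kept the largest CD4 difference in these cells, at 33.6 and 32.3 CPM in WT and 51.5 and 58.5 in SDHA-KO libraries (0.74, adjusted p = 0.000112). Mrpl57 was at 0.55 and 0.31 in CD4 and CD8 cells, and Mrpl16 at 0.43 and 0.72. Mrpl53 was at 68.9 and 70.9 against 121 and 127 CPM in CD8 cells (0.83). The 8 lower in CD4 cells were Mrps36 (-0.47), Mrps33 (-0.40), Mrpl4 (-0.37), Mrpl38 (-0.34), Mrpl45 (-0.34), Mrps9 (-0.30), Mrps10 (-0.28), and Mrpl18 (-0.23), of which Mrps36 alone was also lower with library totals (-0.28, adjusted p = 0.00956). In CD8 cells Mrpl14, a homolog of bacterial L14, was at 96.1 and 98.5 CPM in WT and 76.6 and 79.1 in SDHA-KO libraries (-0.32), and it was also lower with library totals (-0.24, adjusted p = 0.026).

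**Figure D5:**
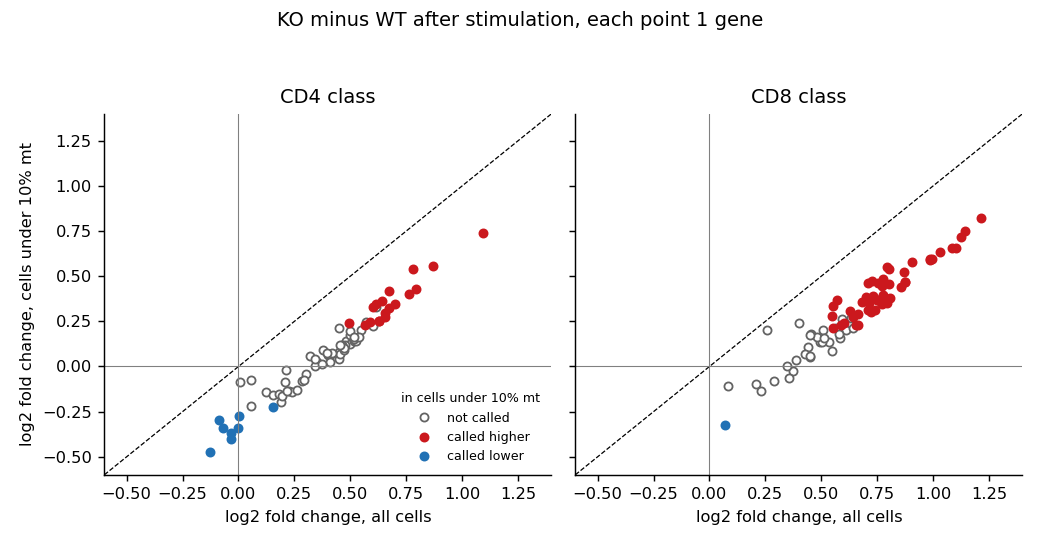
Log2 fold change of SDHA-KO against WT after stimulation in cells under 10% mitochondrial UMIs (vertical axis) against that in all cells (horizontal axis), 1 point per gene, with red for higher, blue for lower, open for not called in cells under 10%, and a dashed line of equal values. With TMM scaling, all 78 points lie below the line in both classes, and 18 in CD4 and 47 in CD8 cells are red.

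The authors' subsets of stimulated cells ran along with mitochondrial percentage. Tem cells held 95.4% to 99.2% cells under 10% in CD4 and 89.2% to 100% in CD8 cells, and Tcm cells 5.74% to 46.2% and 4.32% to 20.9%. CD4 Tem cells numbered 319 and 373 in WT and 901 and 1061 in SDHA-KO libraries, and CD4 Tcm cells 540 and 594 against 236 and 223. Within CD4 Tem cells the large subunit share was 4859.8 and 4841.6 raw CPM in WT and 5632.2 and 6164.9 in SDHA-KO libraries (1.22-fold), and within CD4 Tcm cells 2084.3 and 2071.2 against 2628.2 and 2664.7 (1.27-fold). Within CD8 Tem cells it was 5321.0 and 5062.0 against 6867.0 and 7091.1 (1.34-fold), and within CD8 Tcm cells 2199.9 and 2246.3 against 3276.5 and 2890.9 (1.39-fold). Tem cells had the higher share in both genotypes and classes, and SDHA-KO libraries were above WT libraries in each subset without overlap.

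Calls within subsets were fewer than over all cells. In CD4 Tcm cells 9 members were higher and 2 lower, Mrps33 and Mrpl36, where 12.8% of all genes were higher and 12.3% lower. In CD4 Tem cells 15 were higher and 8 lower, where 15.5% were higher and 16.1% lower. The shares of members called higher in the CD4 subsets were thus near those of all genes. In CD8 Tcm cells 35 were higher and 0 lower (all genes 14.4% and 13.5%), and in CD8 Tem cells 45 were higher and 1 lower, Mrpl14 (all genes 17.1% and 16.3%). The medians of the log2 fold changes were 0.13, 0.08, 0.38, and 0.30. Mrpl39 was called in all 4 subsets, at 1.05 in CD4 Tcm, 0.73 in CD4 Tem, 0.65 in CD8 Tcm, and 0.48 in CD8 Tem cells. The subset names rest on clusters of these cells, so a subset may differ between genotypes in more than these genes.

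Per cell, the picture depended on the cells taken. In CD4 cells a mean of 121 and 124 large subunit UMIs per cell was counted in stimulated WT and 134 and 158 in SDHA-KO libraries, against 17.3 to 21.2 before stimulation. In CD4 cells under 10% the means were 270 and 266 in WT and 152 and 173 in SDHA-KO libraries, the reverse order. In CD8 cells under 10% they were 320 and 304 in WT and 336 and 355 in SDHA-KO libraries. These means move with the UMIs per cell given above, and cells under 10%, which held more UMIs, also had the higher shares.

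The SDHA-KO effect after stimulation was larger in CD8 than in CD4 cells for 70 of 78 members. The difference between the classes, tested within the 4 stimulated libraries, was called in favor of CD8 cells for 35 members and of CD4 cells for 1 (median 0.24, all genes -0.01), where 11.9% of all genes were called in favor of CD8 cells. Large subunit genes made up 22 and small subunit genes 13 of the 35. Of the 59 members higher in SDHA-KO CD4 cells, 58 (98.3%) were also higher in CD8 cells, where they made up 77.3% of the 75. In cells that held only their own coreceptor and no Trdc UMI, 17 members were called, all in favor of CD8 cells, and without stimulated WT replicate 1 the count was 15. For cells with only their own coreceptor, the share of all genes called is not given here. The γδ markers summed to 254 to 261 CPM in stimulated SDHA-KO CD8 cells and to 16.2 to 21.4 CPM in the CD4 cells of the same libraries.

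Mrpl12 led the class difference (0.68 ± 0.07, edgeR adjusted p = 0.000826). It was at 168 and 161 CPM in WT and 202 and 235 in SDHA-KO CD4 libraries (0.41), and at 168 and 163 against 343 and 366 in CD8 libraries (1.10). The libraries of the genotypes did not overlap in either class, and the gap was wider in CD8 cells. Mrpl9, a homolog of bacterial L9, was at 47.6 and 51.1 against 54.0 and 53.7 CPM in CD4 cells (0.12, adjusted p = 0.232) and at 40.4 and 41.5 against 67.9 and 72.0 in CD8 cells (0.77), a class difference of 0.63. Mrpl20 was at 166 and 153 against 202 and 242 CPM in CD4 cells (0.48) and at 176 and 165 against 346 and 377 in CD8 cells (1.09), a difference of 0.60. Of the members with the larger effect in CD4 cells, Mrpl57 alone was called, at -0.25 (adjusted p = 0.0339), and that call was lost without stimulated WT replicate 1 or 2 or SDHA-KO replicate 2.

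The stalk, where translation factors dock, holds 3 of these proteins. Mrpl12 was called in CD8 cells under 10% as well, at 258 and 227 CPM in WT and 369 and 395 in SDHA-KO libraries (0.66), and in such CD4 cells it was at 222 and 209 against 204 and 234 (0.02, adjusted p = 0.88). Mrpl11, which joins the stalk to the ribosomal RNA, was at 62.5 and 61.9 against 95.4 and 115 CPM in CD4 cells (0.76) and at 53.2 and 55.9 against 105 and 111 in CD8 cells (0.98), and it was called in cells under 10% in both (0.40 and 0.59). Mrpl10, which anchors Mrpl12, was at 24.8 and 27.8 against 33.3 and 33.4 CPM in CD4 cells (0.34, adjusted p = 0.0126) and at 21.8 and 25.0 against 30.9 and 30.4 in CD8 cells (0.39). In cells under 10% Mrpl10 was at 0.040 in CD4 and 0.036 in CD8 cells and was called in neither.

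The Mrps18 genes are paralogs of one another and homologs of bacterial S18. In structures of the mammalian ribosome Mrps18a lies in the large subunit and the others in the small one. Mrps18a was at 66.9 and 65.7 CPM in stimulated WT and 94.5 and 105 in SDHA-KO CD4 libraries (0.59), and at 59.7 and 60.7 against 107 and 119 in CD8 libraries (0.91). Mrps18b was at 63.5 and 61.4 against 65.6 and 79.0 CPM in CD4 cells (0.21, adjusted p = 0.0951) and at 70.4 and 72.2 against 123 and 113 in CD8 cells (0.73). Mrps18c was at 91.1 and 96.5 against 125 and 133 CPM in CD4 cells (0.46) and at 73.6 and 80.6 against 106 and 112 in CD8 cells (0.50). All 3 were called in CD8 cells, and Mrps18b was not called in CD4 cells. Mrps18c was not called in cells under 10%, at 0.12 and 0.14. With library totals it was called higher in these cells in both classes, at 0.31 and 0.22 (edgeR adjusted p = 0.00578 and 0.0251).

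For some members the symbol does not give the place of the protein. Mrps30 lies in the large subunit in structures, and it was at 47.2 and 48.3 CPM in stimulated WT and 59.8 and 67.6 in SDHA-KO CD4 libraries (0.42) and at 42.4 and 40.9 against 60.3 and 64.2 in CD8 libraries (0.58). Mrps36 is now placed in the 2-oxoglutarate dehydrogenase complex of the TCA cycle rather than the ribosome. It was at 91.3 and 100.1 CPM in stimulated WT and 84.4 and 90.9 in SDHA-KO CD4 libraries (-0.13, adjusted p = 0.195), and at 88.3 and 93.6 against 101 and 112 in CD8 libraries (0.23, adjusted p = 0.0265). In CD4 cells under 10% it was at 117 and 125 against 84.9 and 89.6 CPM (-0.47, adjusted p = 0.000525), the lowest value of the 8 called lower there. In CD8 cells under 10% it was at -0.14, the opposite sign to all CD8 cells (adjusted p = 0.171).

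Most proteins with bacterial homologs and most without them were higher in stimulated SDHA-KO cells. Of 30 large subunit proteins with bacterial homologs, 26 were higher in CD4 and 29 in CD8 cells (medians 0.47 and 0.66), and of 21 specific to mitochondria, 15 and 21 were (0.48 and 0.67). Of 16 small subunit proteins with homologs, 13 and 15 were higher (0.46 and 0.54), and of 10 specific to mitochondria, 5 and 9 (0.23 and 0.69). None of these 4 lists held a member that was lower. Of 8 proteins around the exit of the nascent chain, 7 and 8 were higher. Of all genes, 22.7% were higher in CD4 and 26.8% in CD8 cells. Mrps18a and Mrps18b, although related to bacterial S18, were listed among the proteins specific to mitochondria, and Mrps18c among those with homologs. No difference between these lists was tested.

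Other nuclear genes of mitochondrial translation were read from lists of the same kind. Of 5 ribosomal proteins with other symbols, 5 rose with stimulation in WT cells of both classes, with Gadd45gip1, which encodes a large subunit protein, at 1.52 and 1.12. In stimulated SDHA-KO CD4 cells 3 were higher and 1 lower, with Chchd1, a small subunit protein, at 0.72 and Ptcd3, a pentatricopeptide protein of the small subunit, at -0.34, and in CD8 cells 3 were higher and 0 lower. Of 13 translation factors, 8 rose and 1 fell in WT CD4 cells and 4 rose and 2 fell in WT CD8 cells. Tufm, the elongation factor that brings tRNA, had the largest rise (1.31 and 1.09), and Mtif3, an initiation factor, the largest fall (-0.56 and -0.80). Between genotypes after stimulation, 2 factors were higher and 2 lower in CD4 cells and 6 higher and 1 lower in CD8 cells, where Tufm was at 0.72. Of 21 assembly factors, 7 rose and 5 fell in WT CD4 cells and 4 rose and 6 fell in WT CD8 cells, with Mrm1, which methylates the large ribosomal RNA, at -1.06 and -1.30. In stimulated SDHA-KO cells 6 were higher and 0 lower in CD4 and 12 higher and 2 lower in CD8 cells. Of all genes, 36.2% rose and 30.1% fell in WT CD4 cells, and 35.5% and 30.3% in WT CD8 cells. In stimulated SDHA-KO cells 22.7% in CD4 and 26.8% in CD8 cells were higher, and the share lower is not given here. The counts of assembly factors that rose in WT CD4 or were higher in SDHA-KO CD4 cells were near these shares. So was the count of translation factors that rose in WT CD8 cells.

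Most cytosolic ribosomal proteins fell with stimulation in WT cells. Of 84 tested, 12 rose and 52 fell in WT CD4 cells (median -0.35), where 36.2% of all genes rose and 30.1% fell. In WT CD8 cells 4 rose and 77 fell (median -0.98), where 35.5% of all genes rose and 30.3% fell. Rps27 fell most (-2.42 and -2.94), and Rps27l, its paralog, rose most (1.89 and 1.72). Their summed share in WT CD4 cells under 10% was 345770 and 348060 raw CPM before and 339050 and 346560 after stimulation, and it was 118770 and 124530 in stimulated cells at 10% or more, while in CD8 cells under 10% it went from 389760 and 392550 to 322280 and 324040. After stimulation 19 were higher and 12 lower in SDHA-KO CD4 cells (median 0.05), and 29 higher and 6 lower in CD8 cells (median 0.14). Of all genes, 22.7% and 26.8% were higher, so the CD4 count was near the share of all genes. The share of all genes called lower is not given here. The 13 genes of the mitochondrial genome, whose messages this ribosome translates, differed from its proteins in direction between genotypes. In WT cells 11 rose and 1 fell with stimulation in CD4 and 12 rose and 1 fell in CD8 cells, whereas in stimulated SDHA-KO cells 0 were higher and 13 lower in both, with medians of -1.71 and -1.07. These genes set the mitochondrial percentage by which the cells were split.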

How the data were processed

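Splenic T cells were measured in 8 libraries, and no library was left out. Per the labels and the methods of the study, reads of 10x Genomics 3′ HT libraries were processed with bcl2fastq and Cell Ranger (versions not given in the sources used here) on mm10. The authors merged the libraries in Seurat 4.2.0, removed cells above 6000 (unstimulated) or 8000 (stimulated) detected genes and clusters without CD3 transcripts, and deposited raw UMI counts per gene and cell. Their cell table was deposited with UMI and gene counts, with the percent of UMIs on mitochondrially encoded genes, with a CD4/CD8 ratio on a log10 scale, and with the class and subset of each cell from annotated clusters. Totals and percentages of the table matched the matrix in every cell. How doublets were treated is not stated beyond the limit on genes, and no further cells were removed.

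UMIs were summed per library and class, with groups from the sample titles. The cell table names its libraries by genotype, nt or tr, and replicate, and nt was read as unstimulated and tr as stimulated. Genes were kept by filterByExpr (minimum count 10, minimum total 15), scaled by TMM, and tested in edgeR 4.0.16 with glmQLFit and glmQLFTest over 4 groups and 8 libraries (4 residual degrees of freedom). The classes were compared over stimulated libraries only, 4 in number, each giving a CD4 and a CD8 sum and entered as a block term (2 residual degrees of freedom), and stimulated subsets and cells under 10% mitochondrial UMIs were summed and fitted apart. Benjamini-Hochberg adjusted p below 0.05 over all genes was called, and the test was checked on simulated data. Alternatives were RLE scaling, library totals, no filter, thinning, DESeq2 1.42.0, limma 3.58.1 on log2 of mean CPM per cell with a pseudocount of 1, other sets of cells, and leaving out each library. Where a few genes fill a library, TMM and library totals center the fold changes differently.

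Named genes were, per comparison and class, up to 3 with the largest rise and up to 3 with the largest fall among called members with no overlap and a group mean of at least 20 CPM, those called opposite to most members in both classes, the stalk genes, the Mrps18 paralogs, Mrps30, and Mrps36, and, from other lists, the largest changes. Other genes in the text were named after their values were seen. The members and lists were chosen with earlier results of these data known. Locations come from GENCODE vM21 and promoters from RefSeq. Python 3.11.15, numpy 2.4.6, pandas 2.3.3, scipy 1.17.1, matplotlib 3.10.9, and R 4.3.3 were used.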

Additional observations from a re-analysis of the deposited data

Results flagged for a closer look

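The SDHA-KO effect differed between stimulated and unstimulated cells for 41 members in CD4 and 59 in CD8 cells by an interaction term in edgeR's quasi-likelihood fit, and the log2 fold change was higher after stimulation for all of them. Of all genes, 10.9% and 13.5% differed in that direction. In cells under 10% mitochondrial UMIs the counts were 10 and 21, where 14.2% and 11.1% of all genes were called. The CD4 count there was thus near the share of all genes. In CD4 cells with only their own coreceptor the count was 26, and the share of all genes is not given for those cells. For Mrpl52 the difference was 1.07 on the log2 scale in CD4 and 1.34 in CD8 cells. Over all cells, its SDHA-KO levels were lower before stimulation and at or above WT after it. In stimulated CD4 cells under 10% they were below WT, at 239.5 and 259 against 274 and 285 CPM.

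The SDHA-KO effect after stimulation differed between CD8 and CD4 cells for 36 members by the same kind of term. Of all genes, 11.9% were called toward CD8 cells. Mrpl12 had the largest difference, 0.68 toward CD8 cells, and Mrpl57 was called toward CD4 cells, at -0.25.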

How the results depend on the processing

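Beyond the values below, 1644 pairings of a single-gene value or a member median with an alternative kept their result, apart from leaving out libraries. For a single gene this meant the same call with the same sign, or no call in either fit. For a median it meant a value within the SD over the members. Of the other pairings, 73 lost and 13 gained a call, and 14 medians moved by more than that SD. In cells under 10% mitochondrial UMIs, the members called between stimulated genotypes numbered 26 in CD4 and 48 in CD8 cells and those with a difference between states 10 and 21, which became 18 and 16 with library totals. In such cells that also held only their own coreceptor these counts were 18, 36, 9, and 12, and in all cells with only their own coreceptor 26 had a difference between states in CD4 cells and 17 a class difference. With limma, 62 had a difference between states in CD4 cells. Under 10%, 16.0% of all genes tested for CD4 were called higher and 16.7% lower between stimulated genotypes. The 26 members were thus near the share of all genes. For CD8 these shares were 18.4% and 17.0%. Between states, 14.2% (CD4) and 11.1% (CD8) of all genes were called under this limit, so the 10 members were also near their share. Shares of all genes are not given here for the other settings of this paragraph, whose counts have no baseline. Between unstimulated genotypes 2 members were called in CD4 cells with limma and with no filter, and 2 in CD8 cells with DESeq2, thinning, no filter, 4 libraries, and own-coreceptor cells, with and without the 10% limit. Large subunit shares in cells under 10% gave ratios of 2.03 (CD4) and 2.20 (CD8) for stimulation in WT, 2.82 for stimulation in SDHA-KO CD8 cells, and 1.22 and 1.33 between stimulated genotypes, and small subunit shares gave 2.04, 2.19, 2.59, 1.14, and 1.26. With nuclear UMIs as the total, stimulation in WT gave 1.82 and 1.85 (large) and 1.85 and 1.89 (small), and the genotypes in CD8 cells 1.48 and 1.37. Averaged over cells rather than UMIs, stimulation in WT gave 1.31 and 1.26 (large) and 1.36 and 1.34 (small), stimulation in SDHA-KO 2.24, 2.11, 1.98, and 2.01, and the stimulated genotypes 1.67, 1.73, 1.51, and 1.58. For the small subunit in WT, own-coreceptor cells gave 1.76 and 1.81, and subunits assigned as in structures 1.75 and 1.77. The cause of these moves was not tested.

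Reversed signs were few. Mrpl52 after stimulation of WT CD4 cells was at 0.21 with library totals, 0.40 in cells under 10%, 0.44 in both together, and 0.37 in own-coreceptor cells under 10%, and in CD8 cells at 0.25 with both. Mrpl24 in WT CD4 cells was at 0.011, 0.046, and 0.041 in the last 3 of these settings, and Mrpl58 at 0.022 under 10% with library totals. Mrps36 in CD8 cells between stimulated genotypes was at -0.14 under 10%, -0.051 with library totals as well, and -0.34 in own-coreceptor cells under 10%, where its difference between states was -0.55. In own-coreceptor CD4 cells under 10%, Mrpl10 between genotypes was at -0.011 and the differences between states of Mrpl53 and Mrps7 at -0.024 and -0.091.

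Leaving out single libraries gave 62 to 71 members called for stimulation in WT, 76 to 78 in SDHA-KO, 1 between unstimulated and 48 to 65 between stimulated genotypes, and 17 to 55 for the difference in CD4 cells, and 54 to 65, 74 to 75, 0 to 2, 68 to 75, and 41 to 56 in CD8 cells, with 15 to 37 for the class difference. Large subunit ratios stayed within 1.73 to 1.79, 2.38 to 2.62, 0.935 to 1.01, and 1.31 to 1.44 in CD4 and 1.73 to 1.76, 2.54 to 2.71, 1.00 to 1.07, and 1.53 to 1.59 in CD8 cells. Small subunit ratios stayed at 1.79 and within 2.08 to 2.33, 1.01 to 1.05, and 1.21 to 1.35 in CD4 and 1.78 to 1.80, 2.36 to 2.51, 1.03 to 1.09, and 1.41 to 1.47 in CD8 cells. Deviations of same-numbered libraries correlated at -0.0777 to 0.0476 over the genes tested. Such deviations also hold count noise, so these values cannot show whether same-numbered libraries shared a mouse or a run. The replicate block left 68, 78, 1, 56, and 32 members called in CD4 and 63, 74, 1, 75, and 54 in CD8 cells. The fits without single libraries and with the replicate block have no share of all genes given here. Their member counts thus have no baseline. Members with few UMIs, such as Mrps2, limit what these depths can show.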
